A study of Mus musculus with 12 samples.

Results

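The genes described here encode 34 autosomal receptor subunits for glutamate and GABA in the mouse. Their CpG sites were taken from the gene body and the 2000 bp upstream of it (GENCODE vM21 basic annotation, mm10 coordinates), wherever a site had 10 or more reads in at least 9 of 12 libraries. A site is 1 cytosine of a CpG on 1 strand. This gave 4811 sites, of 1697478 in the whole series, in 33 of the 34 genes. Of these, 2732 lay in promoters and 2079 in gene bodies, where a promoter runs from 2000 bp before to 1000 bp after any annotated transcription start. Gabra6, an alpha subunit gene of the GABA-A receptor, had 0 sites. A total of 16 sites counted for both Gabra4 and Gabrb1, which overlap head to head on chromosome 5.

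Glutamate is the main excitatory transmitter of the brain and acts on ion channels of the AMPA, NMDA and kainate classes and on metabotropic receptors that signal through G proteins. GABA is the main inhibitory transmitter and acts on chloride channels (GABA-A receptors) and on the G protein-coupled GABA-B receptor. DNA methylation at CpGs is usually low over CpG-rich promoters and higher in the bodies of genes, and alternative starts within a gene can carry levels of their own.

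The samples were brain tissue, hippocampus and cortex mixed, of mice at 11 months of age: 4 Wt mice (3 labelled female, 1 labelled male) and 8 Tg mice (4 of each sex). The Tg2576 line expresses human APP bearing the Swedish mutation of familial Alzheimer's disease from a prion promoter, and Wt mice were wild type. Reduced representation bisulfite sequencing was used, which cuts DNA at CCGG and so reads CpG-rich fragments. Each library came from 1 animal, and a level is the percent of reads at a site that were read as methylated C.

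The coverage summed over all deposited sites ran from 33619981 to 131446104 per library, where a read counts at each site it covers. The median coverage of a receptor site ran from 20 reads in Tg female 4 to 58 in Tg female 1. All 4811 positions were a cytosine in the mm10 reference, and 4810 lay in a CpG there. The library labelled Wt male had a mean X-chromosome level of 19.9%, whereas the 4 Tg males lay between 5.50% and 5.67% and the 7 females between 20.7% and 22.98%. Its sex label thus went against its X level, and values without it are given beside the results it moved most. Because the tissue was mixed, a change in the share of a cell type and a change of level within a cell type cannot be told apart.

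Receptor promoters were almost free of methylation in all groups. Over the 2732 promoter sites the mean level was 2.21% and the median 0.852%, and 2642 sites (96.7%) were under 10%. Over all autosomal promoters 94.8% of sites were under 10%. Only 20 receptor promoter sites reached 50%. The gene bodies were mixed: 1094 of 2079 sites (52.6%) were under 10%, 416 lay between 10% and 50%, and 569 (27.4%) reached 50%. In the bodies of all autosomal genes 34.1% of sites were under 10% and 42.7% reached 50%. The mean over receptor body sites was 28.4%, against 42.4% over all gene-body sites. These shares are descriptions, since neighbouring sites are not independent. The sets also differ in definition: values over the sites of all gene bodies, here and below, leave out sites in any gene's promoter. Receptor bodies leave out only sites in receptor promoters.

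**Figure D1:**
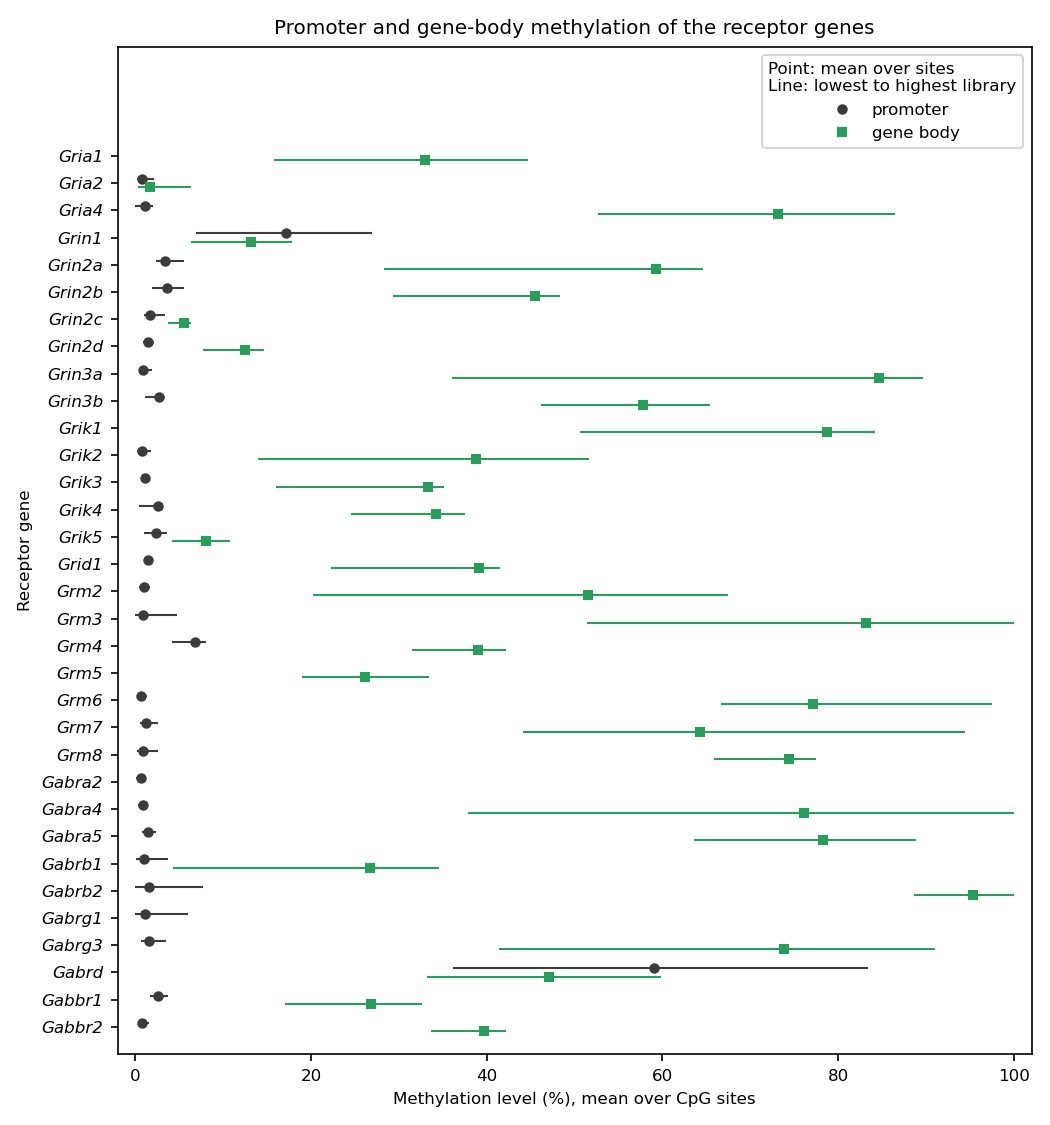
Methylation level (percent, horizontal axis) of the promoter (circles) and gene body (squares) of each of the 33 receptor genes with sites. Points are means over sites. Lines run from the lowest to the highest library with a value, each library averaged over the sites it covers. Some regions lack a value in part of the 12 libraries. Line lengths therefore partly reflect which sites a library covers and are not a measure of spread among animals alone. All promoter means lie under 7% except those of Grin1 (17.2%) and Gabrd (59.0%).

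By distance to the nearest annotated start, levels were lowest within 500 bp upstream, with a mean of 1.19% over 600 sites. They averaged 1.98% over the 1350 sites in the first 500 bp downstream and 3.93% over the 202 sites from 1000 to 2000 bp. From 2000 to 5000 bp the mean was 31.2% over 103 sites, and beyond 20000 bp it was 32.4% over 1291 sites. The medians there were lower, 15.5% and 13.7%, and many sites far from any start were close to 0. Upstream, the 40 sites between 2000 and 1000 bp before a start had a mean of 27.1%.

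**Figure D2:**
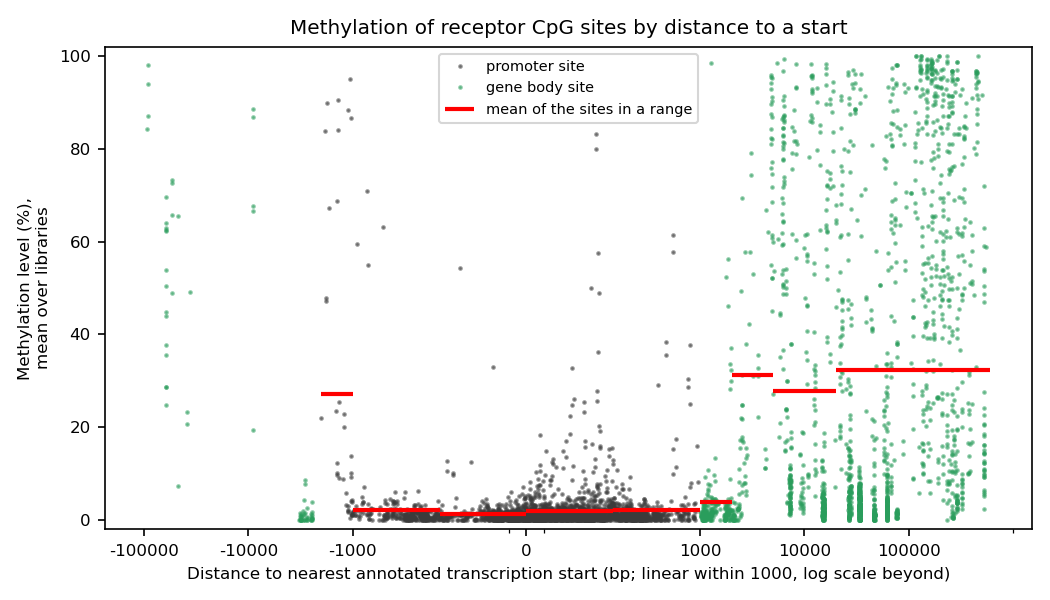
Level of each receptor site (percent, mean over libraries) against its distance to the nearest annotated start in bp, linear within 1000 bp and logarithmic beyond. Red bars are means over ranges of distance; most promoter sites lie near 0 within 1000 bp on either side of a start, and body sites beyond 2000 bp spread from 0% to 100%.

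Among the AMPA receptor genes, which encode the channels of fast excitation, Gria2 (the GluA2 subunit, which limits calcium entry) was low throughout, at 0.785% over 40 promoter sites and 1.64% over 65 body sites. Those body sites all lay in 1 intronic run beginning 1556 bp after the start. Gria4 (GluA4) combined a promoter at 1.13% with 6 body sites at 73.1%. Gria1 (GluA1) had no promoter site that passed, and its 24 body sites averaged 32.9%.

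The NMDA receptor genes, whose channels gate calcium entry in synaptic plasticity, held 787 body sites over 7 genes. Grin2c (GluN2C) and Grin2d (GluN2D) had low bodies, 5.51% over 225 sites and 12.5% over 294, with promoters at 1.66% and 1.45%. Grin2a (GluN2A) and Grin2b (GluN2B), the main partners of GluN1 in the forebrain, had promoters at 3.42% and 3.64% and bodies at 59.2% and 45.5%. Grin3a (GluN3A) had 0.924% in the promoter and 84.6% over 13 body sites. The body of Grin1 (GluN1) averaged 13.2% over 103 sites. Grin3b (GluN3B) had 2.67% in the promoter and 57.8% in the body.

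Of the kainate receptor genes, Grik2 (GluK2), Grik3 (GluK3), Grik4 (GluK4) and Grik5 (GluK5) had promoters between 0.758% and 2.64%. Their bodies ran from 8.03% in Grik5 over 161 sites to 38.8% in Grik2 over 11, with Grik3 at 33.3% and Grik4 at 34.2%. Grik1 (GluK1) was measured only in its body, at 78.8% over 16 sites. Grid1, for the delta receptor GluD1 that organises synapses, had 1.49% over 206 promoter sites and 39.1% over 110 body sites.

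Metabotropic glutamate receptor promoters were between 0.714% (Grm6, the receptor of retinal ON bipolar cells) and 6.86% (Grm4). Their bodies ran from 26.1% in Grm5, a group I receptor, to 83.2% in Grm3, a group II receptor measured at 7 body sites. Grm2 (group II) and Grm7 and Grm8 (group III, largely presynaptic) had promoters at 1.04%, 1.20% and 0.916%, and the 3 promoter sites of Grm3 averaged 0.947%. The bodies of Grm2, Grm4, Grm6, Grm7 and Grm8 lay at 51.5%, 39.0%, 77.2%, 64.2% and 74.4%. Grm5 had no promoter site that passed.

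The GABA-A subunit genes had promoters from 0.666% in Gabra2 to 1.596% in Gabrg3, with Gabrd apart. Gabra5, the alpha subunit of extrasynaptic receptors in the hippocampus, had 241 promoter sites at 1.40%. Gabra4, Gabrb1, Gabrb2 and Gabrg1 lay between 0.941% and 1.53%. Bodies were measured in 6 of these genes, from 26.7% in Gabrb1 to 95.3% in Gabrb2, but with 17 or fewer sites in each except Gabrb1 (51). The GABA-B genes were densely covered: Gabbr1 had 2.64% over 145 promoter sites and 26.9% over 18 body sites, and Gabbr2 had 0.815% over 186 promoter sites and 39.7% over 218 body sites.

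Gabrd (delta subunit of extrasynaptic GABA-A receptors) and Grin1 (GluN1, the subunit every NMDA receptor needs) were the genes whose promoter level exceeded 10%. Neither value came from sequence at the start itself. The 4 Grin1 sites lay at -1336 to -1438 bp from the start and the 2 Gabrd sites at -826 and -913 bp, the latter inside the neighbouring gene 5830444B04Rik. Grin1 averaged 24.9%, 10.7% and 10.5% in Wt females 1 to 3 and 13.4% in the library labelled Wt male, and the 8 Tg animals had a lowest level of 6.93%, a median of 17.2% and a highest of 26.9%. The groups overlapped. Gabrd was read in 3 Wt animals at 44.9%, 54.8% and 61.4% (the last in the library labelled Wt male). In 7 Tg animals it ran from 36.2% to 83.3%, with a median of 59.7%, and the groups overlapped there too. In both genes some libraries were read at only part of the sites, so averages and overlaps rest partly on different sites. For Grin1, Wt female 2 and Tg male 1 (the lowest Tg level) had no site in common, and site means ran from 9.70% to 25.5%.

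The windows show where the measured CpGs lie and how the sequence at the start of Grin1 compares. The first lines give the Grin1 site at chr2:25320498-25320549 and the Gabrd site at chr4:155398913-155398964 (mm10, plus strand), with the measured CpG in capitals. The last gives the 250 bases before the RefSeq start of Grin1 (chr2:25319188-25319437, GRCm38.p6, minus strand), with all CpGs in capitals. It holds 27 CpGs, and none of the 4 Grin1 promoter sites fell in it.
Grin1 upstream site: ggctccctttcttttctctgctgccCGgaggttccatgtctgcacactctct
Gabrd upstream site: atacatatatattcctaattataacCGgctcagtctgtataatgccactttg
Grin1 before the start: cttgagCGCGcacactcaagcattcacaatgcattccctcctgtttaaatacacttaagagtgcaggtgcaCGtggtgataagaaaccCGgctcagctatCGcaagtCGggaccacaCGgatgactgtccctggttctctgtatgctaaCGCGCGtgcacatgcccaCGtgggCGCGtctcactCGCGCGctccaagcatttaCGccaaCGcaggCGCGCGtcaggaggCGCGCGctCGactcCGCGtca

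Promoter windows of 25 of the 34 genes were found in the RefSeq table, 31 windows in all. Their median CpG count was 17, against 8 over 27025 genes. The GC box GGGCGG, searched on both strands, was in 16 of the 31 windows (51.6%) and in 35.7% of all 32851 windows, and the cyclic AMP response element TGACGTCA was in 0 of the 31 and in 1.79% of all. Gabra6, the gene with no site, had 2 CpGs in its window.

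Within gene bodies, the sites fell into runs, and the runs differed sharply in level. A run is taken here as at least 8 sites with gaps of at most 300 bases, a description chosen after the sites were seen. Of 42 runs in gene bodies, 17 were under 10%, 15 between 10% and 50%, and 10 at 50% or above. Of 35 runs in promoters, 33 were under 10% and none reached 50%. The run of 16 sites at chr5:71658061-71658345 (0.941%) is in both tallies, as a Gabra4 promoter run and a Gabrb1 body run.

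Several low runs lay in coding exons near the 3′ end of a gene. In Grin2c, 154 sites at chr11:115249890-115250646 averaged 2.95%, and in Grik5, 140 sites at chr7:25010123-25010695 averaged 2.91%. Grin2d had a pair of such runs, with 108 sites at 2.86% (chr7:45832853-45833273) and 84 sites at 3.99% (chr7:45833719-45834047). In Grik4, 18 sites of a coding exon averaged 3.84% (chr9:42520879-42521079). The Grin1 runs over its 3′ UTR, which overlap the antisense gene Grin1os, averaged 5.41% over 21 sites and 7.76% over 72.

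The genotypes overlapped in these runs. On the sites read in all 12 libraries, the Grin2c run had 3.46%, 2.52% and 2.78% in Wt females 1 to 3, 2.66% in the library labelled Wt male, and 1.62% to 3.19% in the Tg animals with a median of 2.36%. The Grik5 run had 4.76%, 3.38% and 3.08% in the Wt females, 1.76% in the library labelled Wt male, and 2.06% to 3.36% in the Tg animals with a median of 2.68%. In both genes the highest library was Wt female 1.

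Coding exons elsewhere in Grin2d and Grik4, and in some other receptor genes, were highly methylated. In Grin2d, 26 sites at chr7:45862188-45862354 averaged 75.8%, in the same gene whose 3′ exons were under 4%. In Grik4, 11 sites at chr9:42547508-42547642 averaged 93.0%. In Grin2b, 8 coding-exon sites averaged 93.5%. In Grin3b, 38 sites at chr10:79976850-79977058, which also lie in the convergent gene Tmem259, averaged 71.1%. On its 8 sites read in all 12 libraries, the Grin2d run had 79.5%, 59.4% and 70.9% in Wt females 1 to 3. The library labelled Wt male had 67.1% on these sites, and the Tg animals ran from 55.0% to 81.8% with a median of 67.8%. The Wt animals all lay within the Tg range.

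Sequences of 100 bases from a low and a high coding-exon run of Grin2d, and from the low run of Grin2c, show that both kinds are rich in CpGs (capitals). The windows are chr7:45833018-45833117 with 20 CpGs, chr7:45862250-45862349 with 11 and chr11:115250216-115250315 with 16 (mm10, minus strand, the strand of both genes).
Grin2d low run: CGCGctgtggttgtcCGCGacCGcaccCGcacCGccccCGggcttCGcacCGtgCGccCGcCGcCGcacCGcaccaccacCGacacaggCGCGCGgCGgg
Grin2d high run: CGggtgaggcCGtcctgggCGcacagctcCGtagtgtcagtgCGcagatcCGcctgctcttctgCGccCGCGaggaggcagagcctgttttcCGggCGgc
Grin2c low run: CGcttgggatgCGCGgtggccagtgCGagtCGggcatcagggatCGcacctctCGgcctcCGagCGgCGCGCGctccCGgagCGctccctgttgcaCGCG

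Over all 42 body runs, those under 10% had a median of 7.78 CpGs per 100 bases of reference sequence, those between 10% and 50% had 3.87 and those at 50% or above had 4.53. The 33 low promoter runs had 8.59. The ranges overlapped widely, since the highest class ran from 2.79 to 14.3, the last in a Gabrb1 intron at 97.3%.

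**Figure D3:**
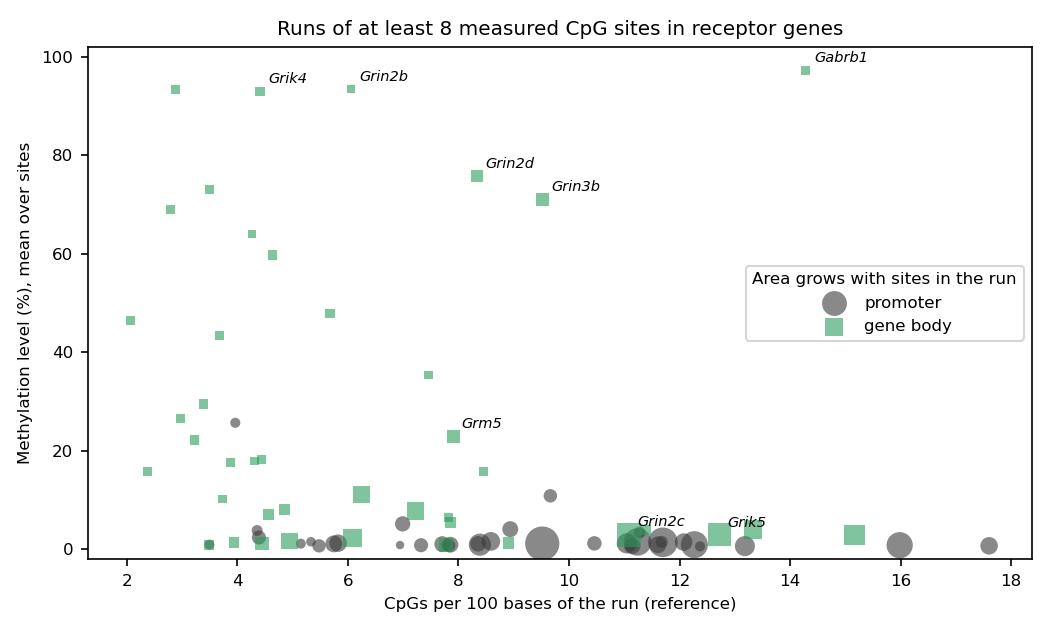
Methylation level (percent) of each run of at least 8 sites against the CpGs per 100 bases of its reference sequence; circles are promoter runs, squares gene-body runs, and area grows with the number of sites. Most CpG-dense runs sit under 10%, while Grin2d (75.8%), Grin3b (71.1%) and Gabrb1 (97.3%) hold dense runs at high levels.

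Other low runs lay in introns. A Grik4 intron held 89 sites at 2.27%, 46225 bp from the nearest annotated start of that gene, and a Grid1 intron 24 sites at 1.24%, 76255 bp from it. The 39 sites at 1.14% in a Grin2d intron overlap the gene Kdelr1. Alternative starts of 1 gene also differed: in Grm4, which encodes a presynaptic group III receptor, 198 sites around 1 start averaged 0.925% and 61 around another 4.07%, whereas 17 sites near an internal start averaged 25.7%. On the sites read in all 12 libraries the first pair did not stand apart, at 0.748% in Wt and 1.09% in Tg against 0.703% and 0.939%. In Grin2a, 76 sites at 1 start averaged 1.24% and 40 sites at another averaged 10.8%. The last coding exon of Grm5, with 36 sites at 22.9%, was at an intermediate level.

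The level of the receptor promoters did not separate the genotypes. Averaged over the 27 genes with sites read in all 12 libraries, it was 1.53%, 1.15% and 1.53% in Wt females 1 to 3 and 1.05% in the library labelled Wt male. The 8 Tg animals ran from 1.19% to 2.06%, with a median of 1.30%. The means were 1.32% ± 0.251 in the 4 Wt and 1.42% ± 0.288 in the 8 Tg animals (SD). Their difference, 0.0972 points, was smaller than either SD. It was 0.00462 points without Tg female 2 and 0.00890 without the library labelled Wt male. The difference took the opposite sign in 0 of 20 alternative settings. It was largest, at 0.826 points, with only the 2000 bp before the outermost start as promoter.

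Gene-body levels overlapped in the same way. Over 23 genes they were 25.3%, 19.5% and 21.1% in Wt females 1 to 3 and 19.8% in the library labelled Wt male, and 18.3% to 23.5% in Tg animals with a median of 22.0%. The means were 21.4% ± 2.65 in Wt and 21.2% ± 1.82 in Tg (SD). The difference of -0.180 points took the opposite sign in 8 of 20 alternative settings and ran from -0.886 to 1.098 points over them, the last without Wt female 1. Leaving out the library labelled Wt male gave -0.728 points. No p is given for these averages, because the genes were chosen with earlier results known. Averaged over the 18 genes with both, bodies lay above promoters in each of the 12 animals, by 18.1 to 26.3 points. That gap depended on what counts as promoter: with only the 2000 bp before the outermost start it was -1.63 points on average.

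**Figure D4:**
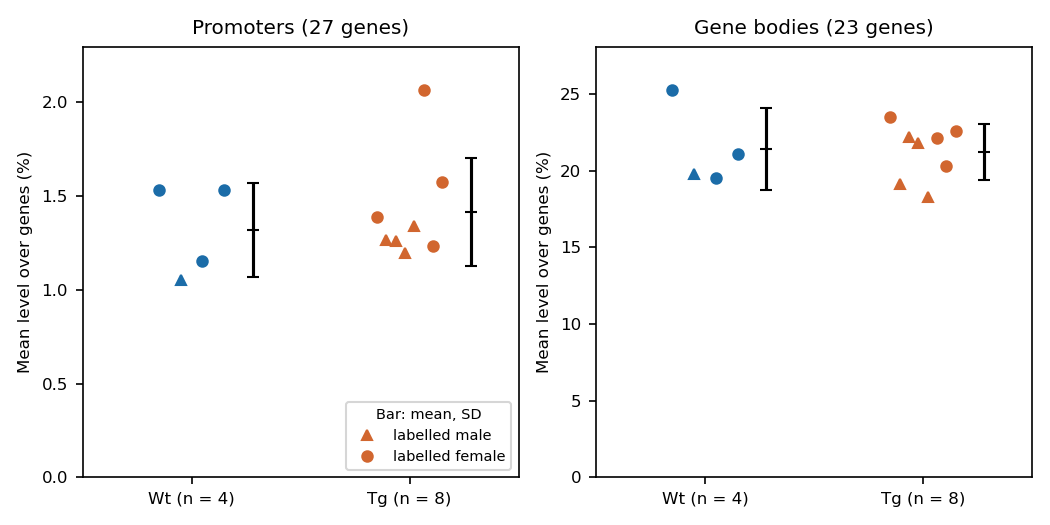
Mean promoter level over 27 receptor genes (left) and mean gene-body level over 23 (right), in percent, for each animal. Points are animals, triangles those labelled male, and bars the mean and SD; Wt and Tg animals overlap in both panels.

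Each promoter and body was then tested for genotype with sex as a covariate, on summed reads, by a quasi-binomial model in which the spread among animals may exceed that of read sampling (the overdispersion model). Of the 50 receptor regions tested, 0 were called at an adjusted p under 0.1, where 3 of 27865 regions of all genes (0.0108%) were. At an unadjusted p under 0.05 there was 1 receptor region, against 5.85% of all regions, and limma on logit levels gave 0 receptor regions at either threshold. The median difference of the receptor promoters was 0.0753 points, against 0.0348 over all promoters, and that of the receptor bodies was -0.0593 points, against 0.210. A binomial model, which treats all reads as independent draws, called 25 of the 50 receptor regions, where it called 45.9% of all regions.

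The Grik3 body had the smallest p, 0.0378 unadjusted and 0.838 adjusted. Its 63 sites averaged 10.9%, 7.20% and 7.20% in Wt females 1 to 3 and 6.57% in the library labelled Wt male, and the Tg animals ran from 9.67% to 13.0% with a median of 10.6%. Wt female 1 lay within the Tg range and the other 3 Wt animals below it. Grik3 encodes GluK3, a kainate receptor subunit of low glutamate sensitivity. Its unadjusted p was 0.229 without the library labelled Wt male, where the read-weighted difference fell from 2.12 to 1.43 points. With no Wt male left, sex as a covariate takes up the Tg males, and that fit compares genotypes among females only. Fits without this library, here and below, therefore also lose the Tg males from the comparison, whereas read-weighted differences keep them.

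The next regions were the bodies of Gabbr1 (unadjusted p = 0.0530), Grm4 (0.0613) and Grik1 (0.0963, a single site) and the promoter of Grin2d (0.0625), with adjusted p from 0.856 to 0.883. The 3 sites of the Gabbr1 body averaged 32.6%, 33.3% and 16.0% in Wt females 1 to 3, 31.6% in the library labelled Wt male, and 10% to 31.6% in Tg animals with a median of 18.03%. The 39 sites of the Grm4 body averaged 22.6%, 16.0% and 14.8% in the Wt females, 14.4% in the library labelled Wt male, and 17.5% to 22.8% in Tg animals with a median of 20.7%. In Gabbr1, Wt female 3 lay inside the Tg range and the library labelled Wt male at its upper end, and in Grm4, Wt female 1 lay inside it and the other 3 Wt animals below. The Grin2d promoter differed by 0.376 points, from 1.54% ± 0.348 in Wt to 1.16% ± 0.340 in Tg (SD). The Grik1 site averaged 3.06% ± 3.56 in Wt and 8.27% ± 7.51 in Tg, and without the library labelled Wt male its unadjusted p was 0.607. All 5 pairs of ranges overlapped.

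Single sites were tested in the same 2 ways. The overdispersion model called 0 of the 4748 receptor sites with enough Wt libraries, and 0 of 1650118 autosomal sites (0%), at an adjusted p under 0.1 and a difference of at least 10 points. At an unadjusted p under 0.05 it had 454 receptor sites, or 9.56%, where 9.43% of all autosomal sites passed. limma on the 2928 receptor sites read in all 12 libraries called 0 and had 171 at an unadjusted p under 0.05 (5.84%, against 5.19% of all sites tested).

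The binomial model called 201 receptor sites (4.23%), close to the 3.99% of all autosomal sites that it called. They comprised 135 sites higher in Tg (2.84%, against 2.34% of all sites) and 66 lower (1.39%, against 1.65%). Without the library labelled Wt male, which leaves only females to compare the genotypes, 148 sites were called (3.12%, against 3.6% of all sites, the X included). Of these, 73 were higher in Tg (1.54%, against 1.75% of all sites). Dispersion, the variance among animals relative to that of read sampling, exceeded 1 at 196 of the 201 sites. The called sites were in bodies almost throughout: 190 of 2043 body sites (9.30%, against 11.1% in all gene bodies) and 11 of 2705 promoter sites (0.407%, against 0.925% in all promoters). The shares varied with the level of the site and fell again at the highest levels. Among receptor sites under 10% the model called 0.216%, and among those from 10% to 50% it called 17.9%. Among those from 50% to 90% it called 24.9%, and from 90% up 5.06%. Over all autosomal sites it called 0.237%, 18.02%, 20.8% and 6.69%.

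Called body sites were most numerous in Gabbr2 (38 of its 218 body sites, 31 higher in Tg) and Grik4 (28 of 247, 20 higher). Grik3 (21 of 143, 14 higher) and Grid1 (14 of 110, 10 higher) came next. These genes had many body sites at high or intermediate levels. Of all called autosomal sites, 58.7% were higher in Tg. By class, and against 11.1% in all gene bodies, 17.9% of the tested GABA-B body sites were called, 12.7% of the delta, 10.4% of the kainate, 9.29% of the metabotropic, 8.51% of the AMPA, 5.81% of the NMDA and 5.75% of the GABA-A. In the promoters, 7 of the 11 called sites were in Grm4, which held 266 of the 2732 receptor promoter sites. Over all promoters 0.925% of sites were called. Of 86 called sites whose opposite strand was also tested, 45 had the same sign there (52.3%, against 54.4% of all called autosomal sites), and 13 moved at least 10 points the same way (15.1%, against 16.98% of all called autosomal sites).

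Wt and Tg ranges did not overlap at 16 receptor sites (0.337%), against 0.209% of all autosomal sites, and 10 of the 16 were among the called sites. The 10 called sites with the smallest overdispersion p, at most 1 within 1000 bp, are described next, in mm10 coordinates. All lay in gene bodies, their overdispersion adjusted p was at least 0.510, and 9 of them lacked at least 1 library.

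Grik4, the gene of the GluK4 subunit, had 3 of them. The intronic site at chr9:42930402-42930453 read 55.6%, 64.7% and 80.5% in Wt females 1 to 3, 69.8% in the library labelled Wt male and 85.7% to 100% in 6 Tg animals, on 14 to 43 reads each. The ranges did not overlap (read-weighted difference 27.6 points, binomial adjusted p = 1.85e-07). Another intronic site read 81.3%, 84.6% and 66.7% in the Wt females and 87.5% in the library labelled Wt male, against 28.6% to 66.7% in 6 Tg animals, with the extremes touching at 66.7% (-27.1 points). Another, in a coding exon, was at 100% in all 5 Tg animals read and at 88.9%, 58.3% and 36.4% in the Wt females and 93.1% in the library labelled Wt male (27.03 points, and 17.98 without Wt female 3). The first and last of these were higher in Tg and the other lower.

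Gabra4, an alpha subunit gene, held the largest difference of the 10, 51.0 points at an intronic site. Wt female 1 read 42.9%, Wt female 3 50% and the library labelled Wt male 8.33%, and 7 Tg animals ran from 69.2% to 100% with a median of 80%. The ranges did not overlap, but coverage was 10 to 28 reads and without the library labelled Wt male the difference was 35.5 points and not called. In Gabbr2, the GABA-B subunit that couples to G proteins, an intronic site was at 100% in all 6 Tg animals read and at 90%, 93.8% and 60% in the Wt animals, the last the library labelled Wt male (12.9 points). The difference was 7.69 points and not called without that library, and 20 points without Wt female 3.

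In Grid1 an intronic site was at 100% in 7 Tg animals and in Wt female 3, at 80.6% in Wt female 1 and at 84.6% in the library labelled Wt male (12.2 points). Without Wt female 1 the difference was 7.84 points and not called. In Grin2d, a site at the edge of the low 3′ run was at 0% in 7 Tg animals and the library labelled Wt male, at 7.14% in Wt female 3 and at 44.4% in Wt female 1, on 18 reads (-11.8 points). Without Wt female 1 it was -2.99 points and not called, and -21.7 points when the library labelled Wt male was left out. These 2 calls each rested on 1 Wt library.

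In the last coding exon of Grm5, the main postsynaptic metabotropic receptor of the forebrain, a site read 7.41% in Wt female 1, 0% in the other 2 Wt animals read, and 0% to 41.7% in 6 Tg animals with a median of 16.9% (20.7 points). In a Grik3 coding exon a site was at 100% in all 4 Wt animals and at 42.9% to 100% in 6 Tg animals (-18.7 points, and -11.9 without Tg female 1), with 3 Tg animals also at 100%. A Grin2c site in its low 3′ run was the only one of the 10 read in all 12 libraries. It read 13.3%, 11.1% and 11.5% in Wt females 1 to 3, 6.12% in the library labelled Wt male and 6.67% to 31.6% in Tg animals with a median of 24.2% (11.3 points, 26 to 112 reads). It was not called without the library labelled Wt male, at 9.25 points. On the opposite strand of this CpG the difference was -12.5 points (binomial adjusted p = 0.0115). At 5 of the 10 sites the opposite strand was tested, and the difference had the opposite sign there at all 5, with values of 6.69 points in Grik3 (adjusted p = 0.0463), 4.32 in Grin2d, -2.13 in Grm5 and 2.05 at the intronic Grik4 site that was lower in Tg.

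**Figure D5:**
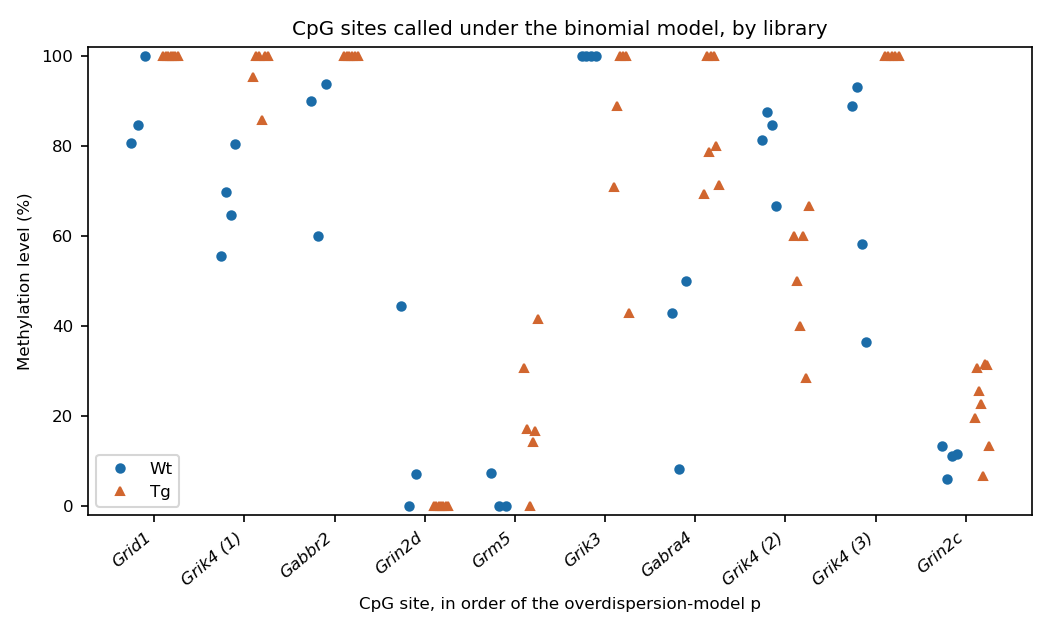
Methylation level (percent) in each library at the 10 called receptor sites with the smallest overdispersion-model p; circles are Wt animals and triangles Tg animals, and libraries under 10 reads are absent. Wt and Tg points are apart at the Grik4 (1), Gabbr2, Gabra4 and Grik4 (3) sites and overlap or touch at the other 6.

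The sequences of the 4 sites whose ranges did not overlap, followed by the Grin2c site read in all libraries, are given 5′ to 3′ on the measured strand with the measured CpG in capitals. Their windows are chr9:42930402-42930453 (minus strand), chr4:46916797-46916848, chr5:71622852-71622903, chr9:42622989-42623040 and chr11:115249880-115249931 (plus strand).
Grik4 intron: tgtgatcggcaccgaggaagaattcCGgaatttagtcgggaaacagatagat
Gabbr2 intron: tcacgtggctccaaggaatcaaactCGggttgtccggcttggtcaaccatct
Gabra4 intron: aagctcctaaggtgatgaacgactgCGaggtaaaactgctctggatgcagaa
Grik4 coding exon: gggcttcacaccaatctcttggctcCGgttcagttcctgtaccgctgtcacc
Grin2c coding exon: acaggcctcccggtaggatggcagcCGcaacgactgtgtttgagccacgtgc

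Other genes of the same transmitter systems, 48 genes for synthesis, transport and auxiliary subunits, were tested beside the receptors. Of the 43 promoters measured, 0 were called by the overdispersion model and 4 had an unadjusted p under 0.05. Of the 30 bodies, 0 were called and 2 had an unadjusted p under 0.05. Over all regions 0.0108% were called and 5.85% had such a p. Their median levels were 1.03% in promoters and 34.4% in bodies. The promoters averaged 2.44% ± 0.320 in Wt and 3.08% ± 0.509 in Tg (SD), with overlapping ranges.

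Levels of cell type markers were compared between genotypes as a check on tissue make-up. In promoters, the 11 of 12 neuronal markers measured averaged 2.33% ± 0.536 in Wt and 2.35% ± 0.285 in Tg, the 9 of 12 oligodendrocyte markers 8.87% ± 1.71 and 8.87% ± 2.38, and the 6 of 10 astrocyte markers 8.88% ± 1.36 and 9.25% ± 1.76 (SD). Only 1 of 10 microglial markers was measured, at 0.483% ± 0.263 and 1.06% ± 0.799. In gene bodies, 7 neuronal markers averaged 17.8% ± 3.15 in Wt and 18.04% ± 1.51 in Tg, 7 oligodendrocyte markers 37.4% ± 3.20 and 32.9% ± 4.51, 8 astrocyte markers 48.5% ± 2.63 and 49.1% ± 2.14, and 7 microglial markers 20.2% ± 6.28 and 20.7% ± 4.34. The ranges of all 4 lists overlapped between genotypes in both. Of these regions 0 were called, against 0.0108% of all regions. An unadjusted p under 0.05 was found for 1 neuronal, 3 oligodendrocyte and 1 astrocyte promoter and 1 astrocyte body, against 5.85% of all regions. The 3 oligodendrocyte promoters were among 9 measured and so above that share, although the promoter means of that list were alike. Its body means, 37.4% in Wt and 32.9% in Tg, lay further apart than those of the other lists. Of its 7 bodies, 0 had an unadjusted p under 0.05 in the overdispersion model. The part of these markers in the receptor results was not tested.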

How the data were processed

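RRBS was done on brain DNA of 4 Wt and 8 Tg mice. According to the labels and methods of the study, the authors had reads aligned to mm10 and called with Bismark by a service and read them into methylKit (versions not given in the sources used here). The deposited values are read counts per CpG cytosine (coverage, methylated C, converted T), strands apart, 1 file per animal. The lowest deposited coverage is 10 reads, so sites below it were not analysed here. At low coverage a single level is coarse, and the reads carry no molecular identifiers.

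The methylated and unmethylated counts of each site were joined over 12 libraries and 11 repeated positions were dropped. No pair of libraries had equal counts at more than 4.07% of shared sites, so each was 1 replicate. No number in the labels is shared between libraries, so animals were not paired. Sites with 10 or more reads in at least 9 libraries, at least 3 of them Wt, were tested by logistic regression on genotype and sex: a likelihood-ratio test (binomial model) and an F test on the deviance scaled by the Pearson dispersion, never below 1 (overdispersion model). The tests are two-sided. P-values were Benjamini-Hochberg adjusted over all 1680056 sites or 27865 gene regions, and a call needed an adjusted p under 0.1 and, for sites, a difference of at least 10 points, thresholds of the study's methods. Region tests and averages over genes used sites read in all 12 libraries, with each gene weighted equally; levels of single genes used sites in at least 9. Python 3.11.15 (numpy 2.4.6, pandas 2.3.3), R 4.3.3 with limma 3.58.1 (logit levels, pseudocount 1) and samtools 1.23.1 were used.

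Values by library are given for promoters above 10%, for the 5 regions with the smallest overdispersion p and for 10 binomial-called sites, smallest overdispersion p first and 1 within 1000 bp. The genes, lists and rules were chosen with earlier results of these data known, and runs of sites were defined after the sites were seen. Alternatives varied the site set, read minimum, covariate, sex, thresholds, strands, weighting, promoter and model, and left out each library.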

Additional observations from a re-analysis of the deposited data

Results flagged for a closer look

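Dixon's test at the 95% level was run within the Wt and within the Tg animals on the averages over receptor genes, the 5 regions and 10 sites described individually, the promoters above 10% and every run with at least 8 sites read in all 12 libraries, 135 groups in all. In 13 of them 1 library lay further from the rest than the test allows, which chance gives in about 1 of 20 groups. Promoter runs were added to the test after their values were seen. Tg female 2 had a mean receptor promoter level of 2.06%, above the 1.19% to 1.58% of the other Tg animals. Wt female 1 had a gap between bodies and promoters of 26.3 points, above the 19.9 to 20.6 of the other Wt animals. Wt female 1 also had 10.9% in the Grik3 body, where the others had 6.57% to 7.20%, and 13.3% in 1 run of the Grin1 3′ UTR, where the others had 3.26% to 4.44%. Wt female 3 had 16.0% in the Gabbr1 body, where the others had 31.6% to 33.3%. Tg male 3 had 85.7% at the first Grik4 site, where the other Tg animals had 95.3% to 100%. Tg female 4 had 2.27% in the Grin2d run that overlaps Kdelr1, where the others had 0.137% to 0.952%.

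The other 6 were promoter runs at low levels. Tg female 4 had 5.24% in a Grin2a run (others 0.527% to 1.27%), and Tg female 2 had 2.94% in the Gabrg3 run (others 0.562% to 1.16%). Tg male 1 had 4.59% in a Grik2 run (others at most 1.25%) and 3.44% in the Grm4 run of 198 sites (others 0.502% to 0.976%). In Wt, the library labelled Wt male had 2.14% in the Grin3b run (others 1.04% to 1.14%), and Wt female 2 had 0.968% in the Gabbr2 run (others 0.662% to 0.674%).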

How the results depend on the processing

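The overdispersion model called 0 receptor sites under every alternative tried, limma included, and 0 receptor regions under every one except the binomial model, which called 25. The number of receptor sites called under the binomial model was 201. With a difference of at least 25 points it was 22 of 4748, where 7636 of all 1680056 sites were called, the X included. With an adjusted p under 0.01 it was 69, where 29743 of all sites were. On sites read in all 12 libraries it was 48 of 2928, where 16871 of all 980547 were. A minimum of 20 reads gave 53 of 3389, where 20516 of all 1120604 were. Summing the strands of a CpG gave 132 of 2970, where 55729 of all 1111456 were. Leaving out 1 library gave 148 to 233 calls, where 60509 to 88771 of all 1680056 sites were called. Of the 201 sites, 34 were called in all 12 such fits. The fit with 148, without the library labelled Wt male, compared genotypes among females only. The promoter difference between Tg and Wt was 0.626 points on sites in at least 9 libraries and 0.826 with only the 2000 bp before the outermost start as promoter. The gap between bodies and promoters was 21.2 points. It was 9.0002 with sites weighted equally, 42.5 on sites in at least 9 libraries, 14.8 with a minimum of 20 reads and -1.63 with only the 2000 bp before the outermost start as promoter, which moves sites at the start itself into the body. Leaving out gene-body sites in the promoter of another gene, an alternative chosen after seeing the data, kept all 3 averages within the spread between animals. No paired analysis was possible because no number in the labels is shared between animals of the 2 genotypes. Depth limits single sites: the sites described individually had as few as 10 reads in a library, and a library missing at a site could not be weighed there.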
